A study of Mus musculus with 16 samples.

Results

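The mitochondrial carrier family, whose genes carry the symbol Slc25a and a number, was followed across regulatory T cells (Treg) and conventional T cells (Tconv) of mouse fat, with and without deletion of Hpgd in Treg. Members were chosen as rows of the deposited table with such a symbol, and 45 of them, out of 19540 genes, are described. Of these, 40 had a normalised value of 10 or more in at least 3 of the 16 libraries and were tested. The other 5, Slc25a21, Slc25a31, Slc25a34, Slc25a41 and Slc25a48, are described by their highest values. None of the 40 passed the test in any comparison, for Hpgd deletion or between cell types, at a limma adjusted p under 0.05. The closest was Slc25a51, the NAD carrier, which stood higher in every Treg KO than in every Tconv KO library (limma adjusted p = 0.0713). Slc25a5, an ADP/ATP translocase, and Slc25a3, the phosphate carrier, had the highest levels per kb of exon among them.

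Mitochondrial carriers are small proteins of the inner mitochondrial membrane. Each is built from repeats of a similar domain and usually exchanges a metabolite of the matrix for one of the cytosol. Through them ADP and phosphate enter and ATP leaves, reducing equivalents are shuttled, citrate is exported for lipid synthesis, and cofactors reach the enzymes that need them. A few members sit elsewhere, such as Slc25a17 in peroxisomes and Slc25a46 in the outer mitochondrial membrane. Treg are commonly described as relying more on oxidative metabolism than other activated T cells do.

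The groups were 4 Treg KO, 3 Treg WT, 5 Tconv KO and 4 Tconv WT libraries, sorted from visceral adipose tissue (VAT) of C57BL/6JRcc mice aged 12 weeks. KO means that Hpgd, which encodes the enzyme that inactivates prostaglandin E2, was deleted by a floxed allele and Foxp3-YFP-Cre, a recombinase driven by Foxp3 and therefore active in Treg. Tconv KO are thus conventional cells from mice with deleted Treg and are not meant to lack Hpgd themselves. All samples carry the same line label, floxed allele and Cre included, so the genotype of each library rests on its title. The series gives 5 deleted and 4 WT animals without tying libraries to them, so p-values measure the spread between these libraries. Values are read counts divided by a library factor, plus 1, so a gene with no reads stands at 1.

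Hpgd stood at 3.41, 2.54, 2.42 and 1.00 in Treg KO, against 73.1, 56.0 and 4.31 in Treg WT. The third Treg WT value is close to those of Treg KO, so this library is called the library labelled Treg WT 3, and the differences with the smallest p in comparisons that use it are given without it too. Hpgd was at 1 in all Tconv libraries but Tconv KO 3, at 6.20. Foxp3 averaged 403 ± 120 in Treg KO and 407 ± 182 in Treg WT (SD, n = 4 and 3), against 1.98 ± 1.73 in Tconv KO and 15.5 ± 18.4 in Tconv WT (SD, n = 5 and 4). Libraries held 3.39 to 9.26 M reads, except Tconv KO 3 with 56.7 M. The value that 3 reads give lay between 1.38 and 7.09. In Tconv WT 1 the neutrophil markers S100a8, S100a9, Csf3r, Retnlg and Cxcr2 summed to 14854, against 85.3 to 198 in Treg KO, Treg WT and Tconv KO libraries. The sum came from S100a8 (10195), S100a9 (4204) and Retnlg (396). Csf3r, at 21.7, was within the range of other libraries, and Cxcr2, at 42.4, was at its lowest there. Summed macrophage markers were also highest in Tconv WT 1, at 1075. Tconv WT 3 carried red cell and platelet markers summed to 160120. Adipocyte markers summed to at most 69.8 in any library.

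The 3 ADP/ATP translocases that the table lists show how far apart members of 1 function lay, and their promoters are printed for that reason. Slc25a5 was the member with the highest level per kb of exon, Slc25a4 was the third, and Slc25a31, which is best known from male germ cells, had reads in only 2 of 16 libraries. The windows are RefSeq sequence of GRCm38.p6, from 250 bases before to 50 after the annotated start, 5′ to 3′ on the gene's strand, with CG dinucleotides in capitals. They lie at chr8:46211013-46211312 on the minus strand (Slc25a4), chrX:36795347-36795646 on the plus strand (Slc25a5) and chr3:40708621-40708920 on the plus strand (Slc25a31).
Slc25a4: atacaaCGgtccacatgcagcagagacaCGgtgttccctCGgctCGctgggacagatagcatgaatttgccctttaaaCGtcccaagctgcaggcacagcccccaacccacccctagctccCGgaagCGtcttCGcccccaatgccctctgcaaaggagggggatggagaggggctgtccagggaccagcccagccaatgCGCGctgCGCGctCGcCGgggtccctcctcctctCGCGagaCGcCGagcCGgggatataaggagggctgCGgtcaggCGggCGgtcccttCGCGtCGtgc
Slc25a5: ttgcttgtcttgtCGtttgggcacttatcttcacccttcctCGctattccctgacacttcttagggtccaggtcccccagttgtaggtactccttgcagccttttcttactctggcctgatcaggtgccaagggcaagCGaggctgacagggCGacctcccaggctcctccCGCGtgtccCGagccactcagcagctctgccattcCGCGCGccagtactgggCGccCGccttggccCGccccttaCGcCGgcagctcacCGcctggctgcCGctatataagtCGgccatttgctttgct
Slc25a31: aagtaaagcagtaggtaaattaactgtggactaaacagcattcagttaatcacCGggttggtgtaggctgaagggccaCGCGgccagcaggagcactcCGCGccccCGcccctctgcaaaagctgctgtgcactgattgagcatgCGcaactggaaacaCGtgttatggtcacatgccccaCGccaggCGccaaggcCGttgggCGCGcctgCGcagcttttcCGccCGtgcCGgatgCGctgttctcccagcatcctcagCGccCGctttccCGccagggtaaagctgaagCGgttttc
The windows held 25, 18 and 22 CG dinucleotides in this order, at percentiles 81.6, 70.3 and 76.9 of all 32851 windows of the RefSeq table. In these 3 genes CG content did not follow the level: the barely read Slc25a31 had more than Slc25a5.

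RefSeq windows were found for 35 members, 45 windows in all, and not for the other 10, Slc25a51 among them. Windows of the same member can overlap, as in Slc25a14 and Slc25a23, so the same bases can count more than once. The median member window held 15 CG dinucleotides, against 7 over all windows. GGGCGG, the GC box, was present on either strand in 38 of 45 member windows (84.4%), against 35.7% of all windows. CCAAT was present in 22 (48.9%, against 37.4%), CACGTG, an E-box, in 8 (17.8%, against 7.15%), and TATAAA in 2 (4.44%, against 13.6%). None of these 4 motifs contains another, and a match describes letters, not binding.

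A small and similar part of each transcriptome went to the family. The 45 members took 0.228 ± 0.0224% of reads in Treg KO and 0.227 ± 0.0131% in Treg WT, against 0.242 ± 0.0109% in Tconv KO and 0.235 ± 0.018% in Tconv WT (SD, n = 4, 3, 5 and 4). The means differed by less than the largest of these SDs. Slc25a3, the phosphate carrier, and Slc25a5 together made up 55.8 ± 1.79% of these reads in Treg KO, 55.5 ± 5% in Treg WT, 54.5 ± 1.15% in Tconv KO and 51.3 ± 4.29% in Tconv WT. Both were at 1000 or more in every library. In all, 15 members were at 100 or more in every library, 25 at 10 or more, and 28 had reads in each library. Of the tested members, 12 had no reads in at least 1 library.

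Per kb of exon, and as the mean of the 4 group means, the order was led by Slc25a5 (2206), Slc25a3 (1087), Slc25a4 (308), Slc25a11 (256), Slc25a38 (141) and Slc25a39 (116). Slc25a5 stood at percentile 99.1 and Slc25a39 at percentile 83.8 of all genes on this per-length scale. At the other end were Slc25a21 (0.339) and Slc25a41 (0.296). In the 15 members at 100 or more in every library, the highest group mean was 1.21 (Slc25a11) to 1.95 times (Slc25a25) the lowest. This choice leaves out members that fall low in any library, and the same ratio over all genes is not given. Treg KO was the highest group in Slc25a25, Slc25a51 and Slc25a11, and the lowest in 5 of the 15.

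**Figure D1:**
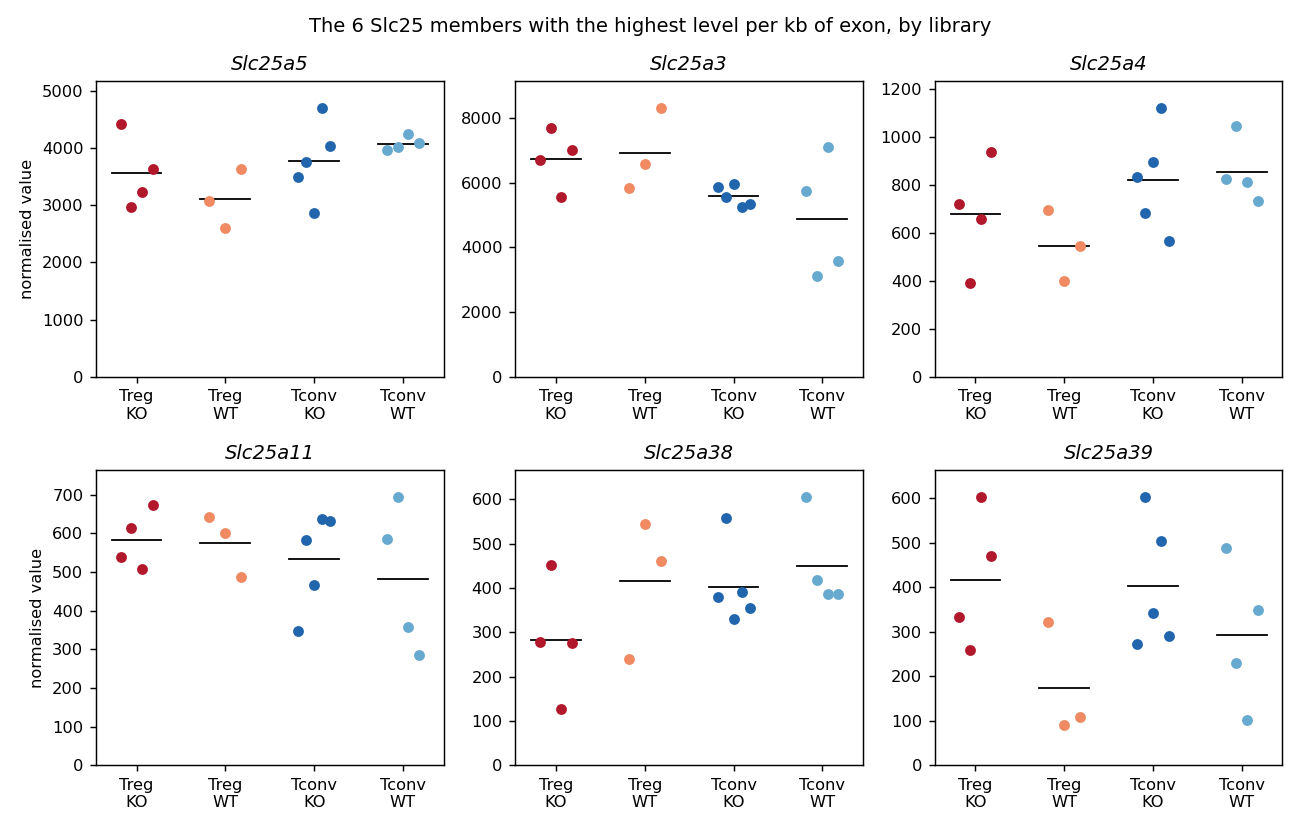
Normalised values (vertical axis, from 0) of the 6 members with the highest level per kb of exon in each library, in Treg KO, Treg WT, Tconv KO and Tconv WT; each point is a library and each line a group mean. Treg WT lies below Tconv WT in all libraries for Slc25a5 and Slc25a4, and KO groups overlap in every panel.

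Between Treg WT and Tconv WT, 0 of 40 members passed by limma, against 599 of 14319 genes (4.18%), and 0 by limma voom. Between Treg KO and Tconv KO it was 0 of 40, against 975 genes (6.81%), and 1, Slc25a15, by limma voom. Among genes that passed as higher in Treg the background was 2.2% in WT and 4.16% in KO. At an unadjusted p under 0.05 there were 5 members in WT (12.5%, against 16.3% of genes) and 6 in KO (15%, against 18.7%). The median log2 difference over members was -0.13 in WT and 0.09 in KO, against 0.0 and 0.04 over all genes. Members above 0 numbered 16 of 40 in WT (40.0%, against 49.6% of genes) and 23 of 40 in KO (57.5%, against 52.3%). Groups did not overlap for 3 members in WT, Slc25a4, Slc25a5 and Slc25a29 (7.5%, against 12.0% of genes), and for 1 in KO, Slc25a51 (2.5%, against 10.7%). Since these are bulk libraries, more RNA per cell and more cells of an expressing kind cannot be told apart, here and in every comparison that follows. Of the Treg markers Foxp3, Il2ra, Ikzf2 and Ctla4, all 4 passed as higher in Treg in both genotypes. Of markers of other cell types, Cd68, a macrophage gene, passed as lower in Treg KO than in Tconv KO (limma adjusted p = 0.0318), and Pf4, a platelet gene, as lower in Treg WT than in Tconv WT (adjusted p = 0.0333). Cd68 went against the rest of its list. Of the 3 macrophage markers tested, 2, Csf1r and Lyz2, were above 0 in Treg KO against Tconv KO, with a median log2 difference of 1.48 over the 3. Summed macrophage markers ran from 22.7 to 231 in Treg KO and from 38.9 to 199 in Tconv KO, and markers of dividing cells from 352 to 507 and from 366 to 889. Their part in the differences was not tested.

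The smallest p-values in WT on the positive side belonged to Slc25a3 (0.57, SE 0.23, limma adjusted p = 0.197), Slc25a25 (0.66, SE 0.35, adjusted p = 0.374) and Slc25a27 (2.25, SE 1.23, adjusted p = 0.391). On the negative side they belonged to Slc25a29 (-3.46, SE 1.18, limma adjusted p = 0.114), Slc25a24 (-0.77, SE 0.34, adjusted p = 0.253) and Slc25a4 (-0.67, SE 0.3, adjusted p = 0.263). In KO they were Slc25a51 (0.85, SE 0.27, limma adjusted p = 0.0713), Slc25a25 (0.85, SE 0.31, adjusted p = 0.119) and Slc25a15 (2.66, SE 1.14, adjusted p = 0.202) above 0. Below 0 they were Slc25a46 (-0.76, SE 0.3, limma adjusted p = 0.147), Slc25a30 (-0.83, SE 0.33, adjusted p = 0.16) and Slc25a38 (-0.61, SE 0.33, adjusted p = 0.349). Slc25a25 was the 1 member among them in both genotypes.

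Single libraries moved several of these values, and none of those that follow passed. Without the library labelled Treg WT 3 the WT differences were 0.39 for Slc25a25, 2.06 for Slc25a27, -3.24 for Slc25a29, -0.5 for Slc25a24 and -0.68 for Slc25a4, with limma adjusted p from 0.275 to 0.741. Slc25a25 was 1.08 without Treg WT 2 (limma adjusted p = 0.0958) and Slc25a27 1.38 without Tconv WT 1 (adjusted p = 0.667). In KO, Slc25a38 was -0.27 without Treg KO 3 (limma adjusted p = 0.775).

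**Figure D2:**
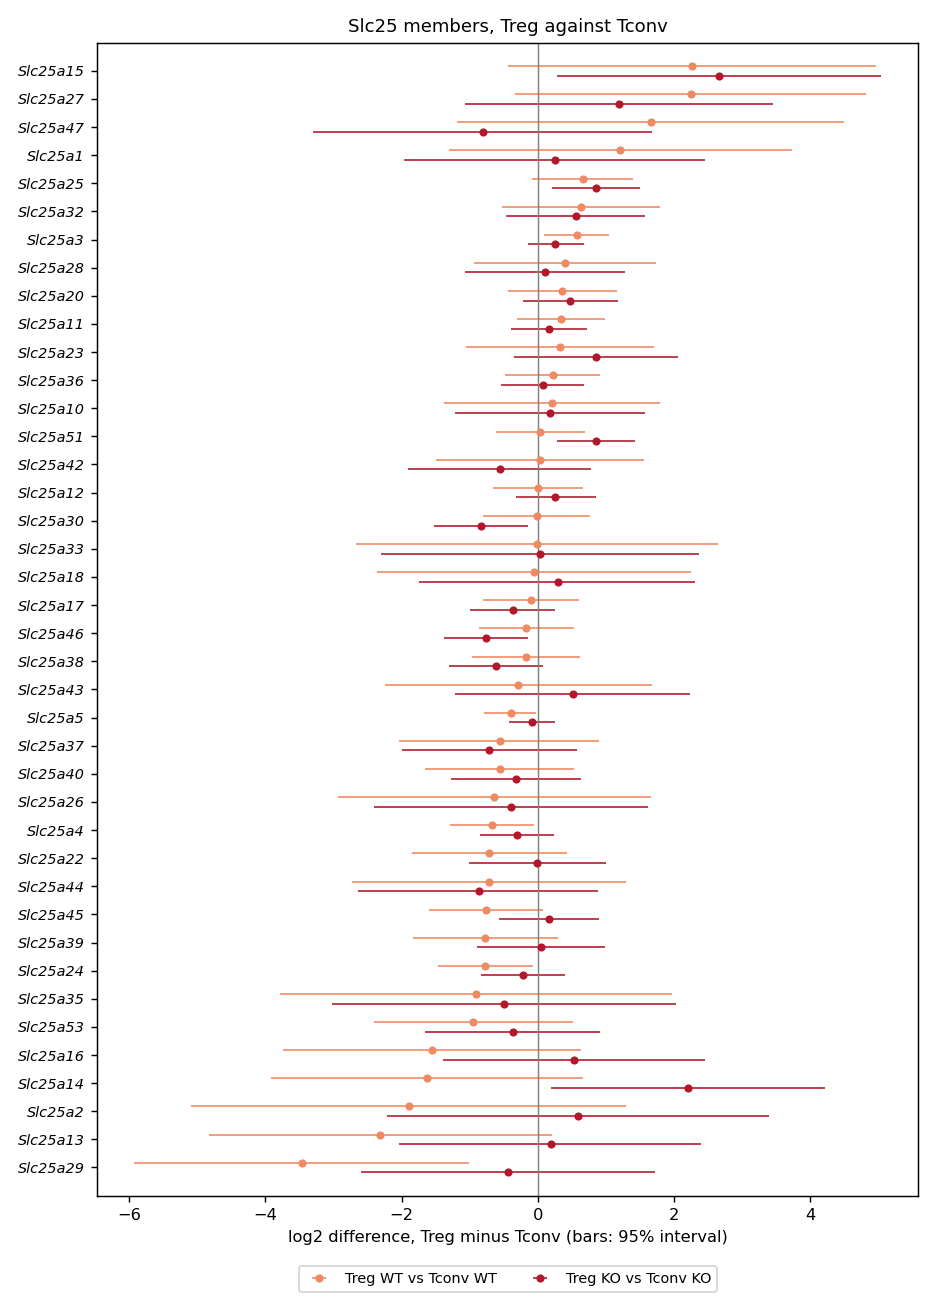
The log2 difference of Treg minus Tconv (horizontal axis) for the 40 tested members, in WT and in KO, with 95% intervals. None of them reached an adjusted p under 0.05, and members with few reads, such as Slc25a15 and Slc25a29, have wide intervals.

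Nucleotide and phosphate carriers were the most abundant class, with 10 members of which 8 were tested, and 0 passed in any comparison. Slc25a5, which exchanges ADP for ATP, had 4423, 2968, 3227 and 3634 in Treg KO, 3073, 2612 and 3643 in Treg WT, 3505, 3759, 2869, 4706 and 4037 in Tconv KO, and 3968, 4016, 4246 and 4092 in Tconv WT. All Treg WT libraries lay below all Tconv WT libraries, by 0.40 on the log2 scale, but this did not pass (limma adjusted p = 0.269), and KO groups overlapped. Slc25a4, the translocase of heart and muscle, had 721, 391, 659 and 938 in Treg KO, 697, 398 and 546 in Treg WT, 835, 684, 898, 1122 and 566 in Tconv KO, and 824, 1046, 811 and 734 in Tconv WT. It too was lower in every Treg WT than in every Tconv WT library without passing (-0.67, limma adjusted p = 0.263).

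Slc25a3, which brings in the phosphate for ATP synthesis, had 6702, 7706, 5556 and 7027 in Treg KO, 5831, 6580.1 and 8316 in Treg WT, 5879.6, 5546, 5976, 5241 and 5339 in Tconv KO, and 5746, 3102, 7102 and 3584 in Tconv WT. Its Tconv WT libraries spread the widest. The difference of Treg WT from Tconv WT, 0.57, did not pass (SE 0.23, limma adjusted p = 0.197), though it passed at 0.77 (limma adjusted p = 0.0409) when Tconv WT 3, the library with red cell markers, was left out. It was 0.38 without Tconv WT 2 (limma adjusted p = 0.429) and 0.42 without the library labelled Treg WT 3 (adjusted p = 0.503). Among the calcium-regulated ATP-Mg/phosphate carriers, Slc25a24 had 316, 208, 380 and 236 in Treg KO, 421, 263 and 192 in Treg WT, 369, 285, 473, 264 and 269 in Tconv KO, and 357, 417, 594 and 563 in Tconv WT. Slc25a25 had 860, 1043, 481 and 568 in Treg KO, 730, 334 and 867 in Treg WT, 324, 463, 506, 488 and 240 in Tconv KO, and 331, 364, 399 and 419 in Tconv WT, with 1 Treg library inside the Tconv range in each genotype. Its differences of 0.85 in KO (limma adjusted p = 0.119) and 0.66 in WT (adjusted p = 0.374) did not pass. Slc25a23 ranged from 25.2 to 229 and the pyrimidine nucleotide carriers Slc25a33 and Slc25a36 from 1 to 249 and from 296 to 780. Slc25a41 reached 4.99 in Tconv KO 4, and Slc25a31 reached 9.88 in Tconv KO 5, from 10 reads.

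The aspartate, glutamate and malate carriers move the substrates of the malate-aspartate shuttle, which brings cytosolic reducing equivalents to the respiratory chain. All 5 were tested and 0 passed in any comparison. Slc25a11, the oxoglutarate/malate carrier, had 540, 614, 507 and 673 in Treg KO, 643, 600 and 486 in Treg WT, 348, 583, 467, 636 and 631 in Tconv KO, and 585, 695, 359 and 285 in Tconv WT. It had the smallest ratio between group means of the 15 members that are well read. Its exons overlap those of Rnf167 on the other strand, so some reads may belong there. The aspartate/glutamate carriers were unequal in level, with Slc25a12 (aralar) at 260 to 659 and Slc25a13 (citrin) at 1 to 80.6, and per kb their mean levels were 62.0 and 5.32. The glutamate carriers Slc25a22 and Slc25a18 ranged from 47.2 to 249 and from 1 to 43.8.

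Of the citrate and dicarboxylate carriers, Slc25a1 and Slc25a10 were tested and neither passed. Slc25a1, which exports citrate for fatty acid and sterol synthesis, had 252, 175, 136 and 375 in Treg KO, 256, 9.72 and 238 in Treg WT, 202, 139, 476, 221 and 69.4 in Tconv KO, and 139, 63.9, 109 and 1 in Tconv WT. Single libraries far below the rest, Treg WT 2 and Tconv WT 4, set its wide intervals. Slc25a10, the dicarboxylate carrier, ranged from 18 to 225. Slc25a21, the oxoadipate carrier, reached 10.2 in Treg KO 2, from 6 reads, and had reads in 8 libraries.

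Among the carriers of carnitine and amino acids, all 6 were tested and 0 passed in any comparison. Slc25a29, a carrier of basic amino acids, had 9.44, 47.1, 1 and 14.6 in Treg KO, 21.1, 1 and 3.21 in Treg WT, 15.6, 9.57, 54.1, 40.1 and 1 in Tconv KO, and 53.7, 41.6, 82.5 and 79.8 in Tconv WT. All Treg WT libraries lay below all Tconv WT libraries, at a log2 difference of -3.46 (SE 1.18, limma adjusted p = 0.114). Slc25a20, which carries acylcarnitines in for fatty acid oxidation, averaged 519 ± 121 in Treg KO and 609 ± 125 in Treg WT, against 393 ± 175 in Tconv KO and 504 ± 227 in Tconv WT (SD, n = 4, 3, 5 and 4). Its log2 differences between Treg and Tconv were 0.48 in KO (limma adjusted p = 0.502) and 0.36 in WT (adjusted p = 0.725). It shares a stretch of 366 bases at 98.4% identity with other annotated genes, so its reads may be split. Slc25a45 ranged from 126 to 471 and Slc25a44, a carrier of branched-chain amino acids, from 9.72 to 522. The ornithine carriers were unread in some libraries, with Slc25a15 at 1 to 111 and Slc25a2 at 1 to 125.

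Slc25a15 had some of the largest differences between cell types, 2.66 in KO (SE 1.14, limma adjusted p = 0.202) and 2.26 in WT (SE 1.30, adjusted p = 0.415). It had 111, 39.4, 81.7 and 102 in Treg KO, 23.8, 21.9 and 48.4 in Treg WT, 44.8, 36.8, 1, 42.5 and 1 in Tconv KO, and 1, 5.06, 1 and 65.2 in Tconv WT. Reads were absent in 2 Tconv KO and 2 Tconv WT libraries and present in all 7 Treg libraries, with overlapping values in both genotypes. On recovered reads weighted by depth (limma voom) the KO difference passed (5.46, limma adjusted p = 0.0329). Slc25a15 had no reads in Tconv KO 3, the deepest library. Without that library the limma difference was 2.0 and did not pass. The voom fit was not run without it.

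Of the cofactor carriers described, all 6 were tested and 0 passed in any comparison. Slc25a51, the NAD carrier, had 793, 537, 717 and 794 in Treg KO, 381, 336 and 682 in Treg WT, 271, 444, 490, 434 and 348 in Tconv KO, and 394, 348, 370 and 683 in Tconv WT. Every Treg KO library was above every Tconv KO library, at a log2 difference of 0.85 (SE 0.27) that did not pass (limma adjusted p = 0.0713) but did in a fit of those 2 groups alone (limma adjusted p = 0.0378). In WT the difference was 0.04 (limma adjusted p = 0.975). Slc25a16 and Slc25a42, tied to coenzyme A, ranged from 3.21 to 134 and from 12.3 to 131. Slc25a32, for folate and flavin, ranged from 53.7 to 479, Slc25a17 of peroxisomes from 175 to 432, and Slc25a26, for S-adenosylmethionine, from 1 to 129.

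The carriers of metals, haem synthesis and glutathione were all 5 tested and 0 passed. Slc25a38, which supplies glycine for haem synthesis, had 278, 451, 128 and 277 in Treg KO, 239, 545 and 460 in Treg WT, 379, 557, 331, 390 and 354 in Tconv KO, and 606, 417, 386 and 387 in Tconv WT. Slc25a39, a glutathione carrier, had 334, 258, 603 and 470 in Treg KO, 321, 90.8 and 109 in Treg WT, 272, 603, 341, 504 and 290 in Tconv KO, and 487, 230, 102 and 348 in Tconv WT. Its relative Slc25a40 ranged from 38.5 to 197. The mitoferrins, which bring in iron, ranged from 28.6 to 236 (Slc25a37) and from 68.5 to 517 (Slc25a28). The top Slc25a28 value was in Tconv WT 3, the library with red cell markers. Slc25a37, the mitoferrin of red cell precursors, stood at 168 there, the highest of the Tconv WT libraries (30.3 to 168). Its highest value of all was in Tconv KO 5. Whether red cells bear on either mitoferrin was not tested.

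The remaining 10 members include uncoupling protein-like carriers and genes for which no substrate is given here. Slc25a46, an outer membrane protein that affects mitochondrial shape, was the highest of them per kb of exon (80.2), with values of 558, 221, 171 and 228 in Treg KO, 464, 598 and 360 in Treg WT, 468, 568, 448, 382 and 395 in Tconv KO, and 579, 553, 430 and 537 in Tconv WT. Slc25a30 had 175, 178, 283 and 136 in Treg KO, 408, 228 and 331 in Treg WT, 473, 271, 244, 425 and 302 in Tconv KO, and 173, 356, 442 and 366 in Tconv WT. The log2 differences of Treg KO from Tconv KO were -0.76 for Slc25a46 (limma adjusted p = 0.147) and -0.83 for Slc25a30 (adjusted p = 0.16), and neither passed. Slc25a46 did pass in this comparison when Treg KO 1, its highest Treg KO library, was left out (-1.12, limma adjusted p = 0.0114). Exons of Slc25a46 overlap B930094E09Rik on the other strand. Slc25a27, an uncoupling protein-like carrier, had 31.1, 21.0, 50.6 and 12.7 in Treg KO, 76.8, 31.5 and 72.7 in Treg WT, 26.5, 1.78, 10.3, 1.8 and 88.1 in Tconv KO, and 1, 5.06, 23.1 and 70.8 in Tconv WT, and groups overlapped. Slc25a35, Slc25a43 and Slc25a53 ranged from 1 to 139, and Slc25a34 and Slc25a48 reached 34.8 in Treg WT 1 and 9.72 in Treg WT 2.

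In Treg, Hpgd deletion went with no described member that passed: 0 of 40 by limma, against 3 of 14319 genes (0.021%), and 0 by limma voom. At an unadjusted p under 0.05 there were 3 members (7.5%), against 890 genes (6.22%), a share near that of genes at large. None of the 40 had groups that did not overlap, against 6.01% of genes. The median log2 difference of Treg KO from Treg WT was 0.22 over members and 0.08 over all genes. Of the members, 24 of 40 were above 0 (60.0%, against 55.6% of genes). Without the library labelled Treg WT 3, 0 members passed as well.

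The 3 smallest p-values on the positive side belonged to Slc25a39, Slc25a51 and Slc25a16. Slc25a39 differed by 1.42 on the log2 scale (SE 0.51, 95% interval 0.35 to 2.48, limma adjusted p = 0.741), with Treg WT 1 at 321 inside the Treg KO range of 258 to 603. Slc25a51 differed by 0.66 (SE 0.31, 0.01 to 1.31, limma adjusted p = 0.802), and without the library labelled Treg WT 3, its highest Treg WT value, by 0.97 (adjusted p = 0.712). Slc25a16, a carrier linked to coenzyme A, had 114, 30.2, 104 and 53.5 in Treg KO, against 8.30, 134 and 3.21 in Treg WT. Its difference of 1.95 (SE 1.05, limma adjusted p = 0.83) was 0.93 without the library labelled Treg WT 3 and 3.43 without Treg WT 2. On the negative side were Slc25a46 (-0.82, SE 0.34, limma adjusted p = 0.741), Slc25a30 (-0.75, SE 0.38, adjusted p = 0.811) and Slc25a38 (-0.60, SE 0.38, adjusted p = 0.848). Without the library labelled Treg WT 3 the differences were 1.2 for Slc25a39, -1 for Slc25a46, -0.71 for Slc25a30 and -0.48 for Slc25a38. Slc25a38 also ranged from -0.26 without Treg KO 3 and -0.36 without Treg WT 2 to -0.95 without Treg WT 1. The intervals of Slc25a5 and Slc25a3 were narrow, at -0.19 to 0.57 and -0.50 to 0.44. Other well-read members had wider ones, such as -1.53 to 0.04 for Slc25a30 and -0.29 to 1.39 for Slc25a45.

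**Figure D3:**
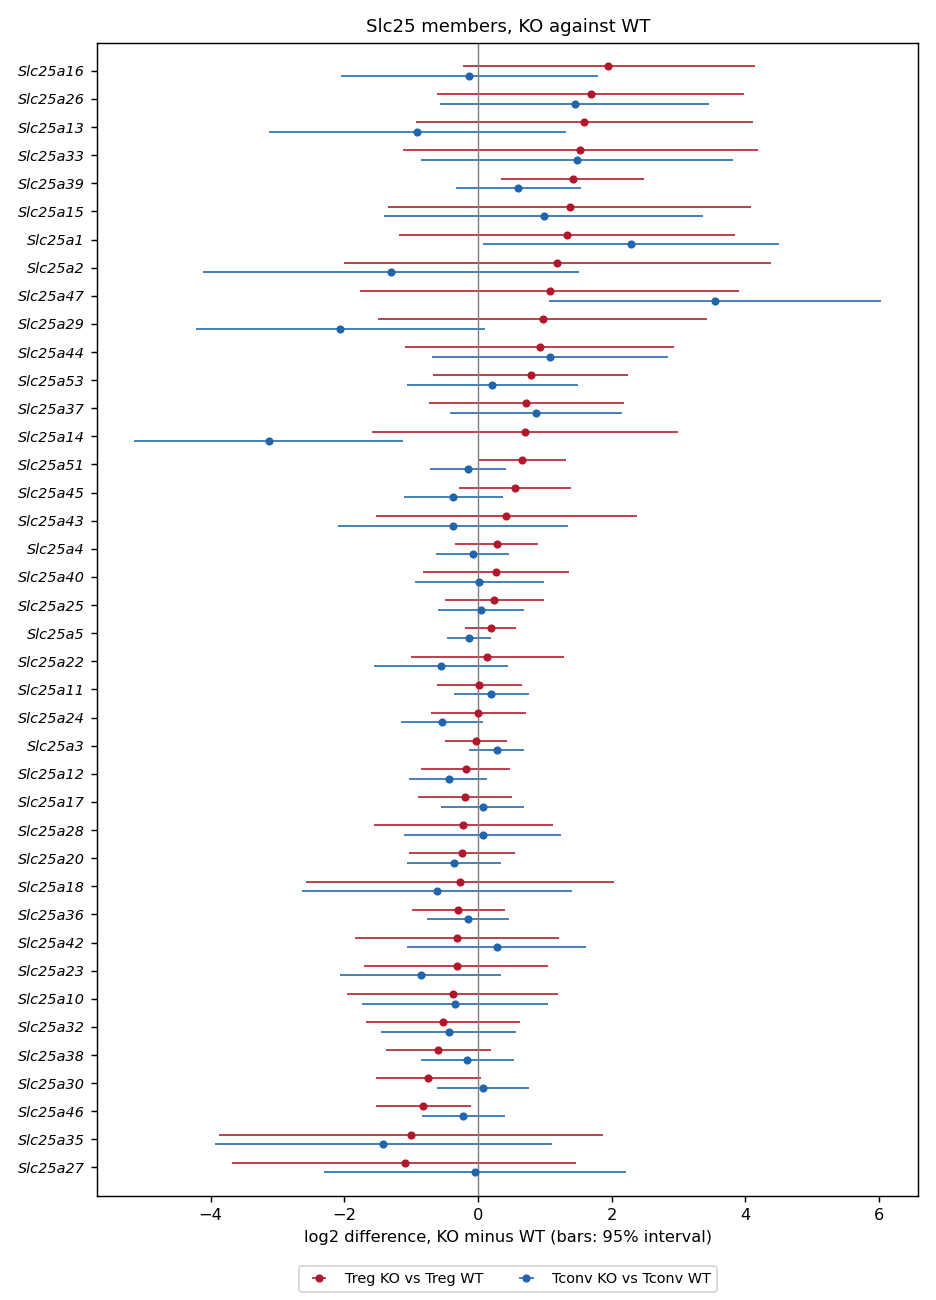
The log2 difference of KO minus WT (horizontal axis) for the 40 tested members, in Treg and in Tconv, with 95% intervals. None of them reached an adjusted p under 0.05, and intervals are widest for the members with few reads.

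In Tconv, which sit beside Treg with or without Hpgd, 0 of 40 members passed by limma, against 0 of 14319 genes (0.0%), and 0 by limma voom. At an unadjusted p under 0.05 there were 3 members (7.5%), against 781 genes (5.45%). The median log2 difference of Tconv KO from Tconv WT was -0.13 over members and 0.02 over all genes. Of the members, 17 of 40 were above 0 (42.5%, against 51.6% of genes). Slc25a47 was the 1 member whose groups did not overlap (2.5%, against 1.67% of genes).

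The members with the smallest p here were mostly low ones. Slc25a47 had 41.1, 49.3, 20.8, 3.39 and 81.0 in Tconv KO, against 1, 3.03, 1 and 1 in Tconv WT, where the 3.03 is 1 read. The 3.39, in Tconv KO 4, is 3 reads, so the lack of overlap rests on a few reads. Its fitted difference of 3.54 (SE 1.19, limma adjusted p = 0.858) depends on the constant added, since the WT group was nearly unread. In Treg it had 14.3, 51.7, 37.8 and 1 in Treg KO, against 1, 1 and 105 in Treg WT, and these overlapped. Slc25a1 differed by 2.29 (SE 1.06, limma adjusted p = 0.899) and by 0.88 without Tconv WT 4, where it was unread. Slc25a26 had 123, 24.4, 75.0, 47.3 and 129 in Tconv KO, against 12.4, 61.9, 71.4 and 5.50 in Tconv WT (1.45, SE 0.96, limma adjusted p = 0.951; 0.8 without Tconv WT 4), and its exons overlap those of Lrig1.

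On the negative side, Slc25a14, an uncoupling protein-like carrier on the X chromosome, had 4.65, 1, 55.4, 22.5 and 1 in Tconv KO, against 83.7, 78.1, 72.5 and 44.9 in Tconv WT. Its difference was -3.13 (SE 0.96, 95% interval -5.14 to -1.12, limma adjusted p = 0.824), and Tconv KO 3, the deepest library, overlapped the WT range. In Treg it had 28.7, 64.0, 43.5 and 19.5 in Treg KO, against 10.1, 9.72 and 92.5 in Treg WT. Slc25a29 differed by -2.06 (SE 1.03, limma adjusted p = 0.91), or -1.33 without Tconv KO 5, and Slc25a24 by -0.54 (SE 0.30, adjusted p = 0.931). Summed neutrophil markers ran from 105 to 14854 and red cell and platelet markers from 104 to 160120 in Tconv WT, against 85.3 to 103 and 18.3 to 163 in Tconv KO. Their part in these differences was not tested beyond leaving libraries out: with Tconv WT 1, Tconv WT 3 and the deep Tconv KO 3 all left out, 0 members passed and Slc25a14 differed by -3.65 (limma adjusted p = 0.677).

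**Figure D4:**
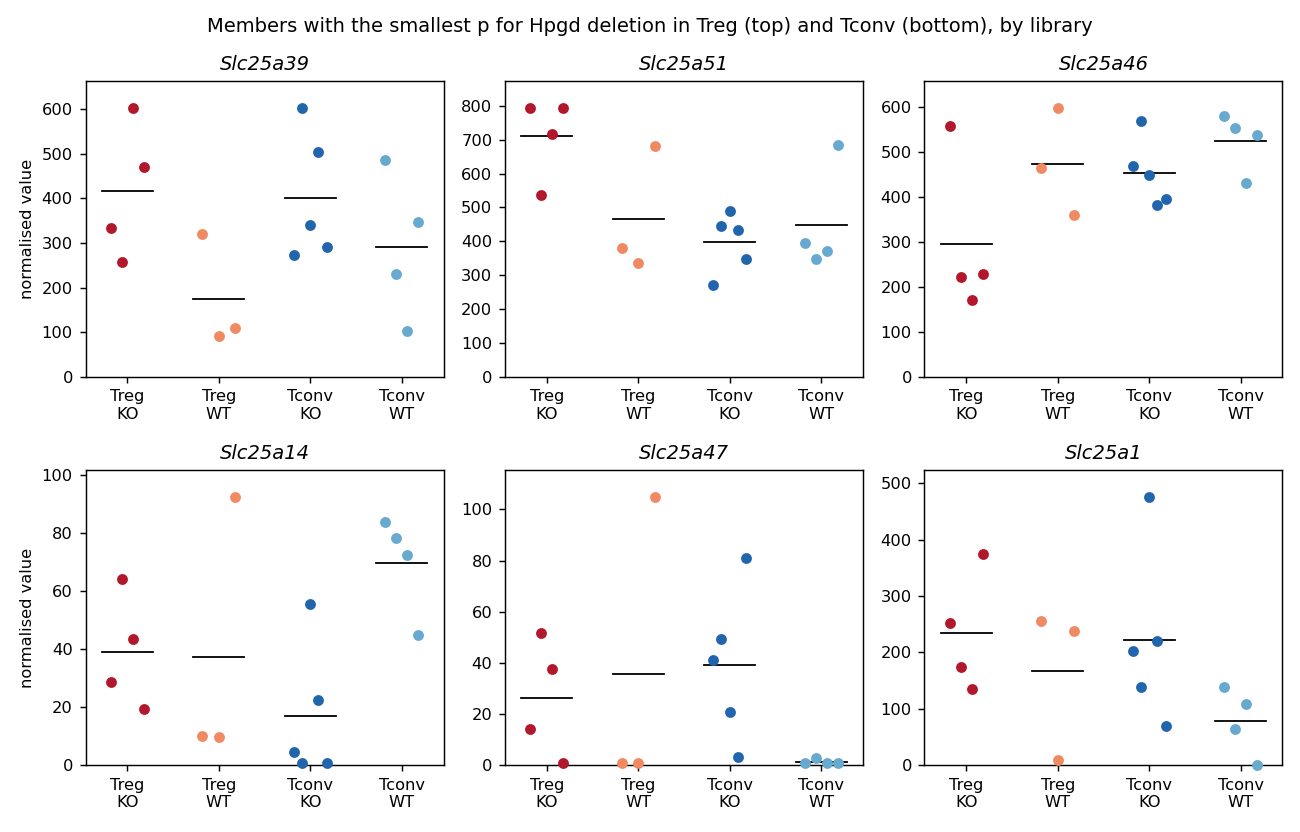
Normalised values (vertical axis, from 0) in each library of the 3 members with the smallest p for Hpgd deletion in Treg (top row) and in Tconv (bottom row); points are libraries and lines group means. Tconv KO lies above Tconv WT in all libraries for Slc25a47, and in the other panels KO and WT of the cell type of that row overlap. For Slc25a47 the lowest Tconv KO value is 3.39 and the highest Tconv WT value 3.03.

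The deletion effect in Treg minus that in Tconv passed for 0 of 40 members by limma, against 0 of 14319 genes (0.0%), and for 0 by limma voom. At an unadjusted p under 0.05 there was 1 member (2.5%), Slc25a14, against 748 genes (5.22%). Its difference of effects was 3.84 (SE 1.46, limma adjusted p = 0.928). Slc25a29 followed with 3.03 (SE 1.56) and Slc25a51 with 0.81 (SE 0.42), both at an adjusted p of 0.928. On the negative side Slc25a30 had -0.82 (SE 0.5, limma adjusted p = 0.936), Slc25a47 -2.47 (SE 1.8, adjusted p = 0.954) and Slc25a46 -0.60 (SE 0.45, adjusted p = 0.954). Without the library labelled Treg WT 3 the values were 4.87 for Slc25a14, 2.81 for Slc25a29, 1.12 for Slc25a51, -0.78 for Slc25a30 and Slc25a46, and -0.56 for Slc25a47. Slc25a47 was -1.48 without Treg KO 4, and Slc25a30 was -0.53 without Tconv WT 1. Slc25a46 was -0.96 when Treg KO 1 was left out, and -0.39 when Treg KO 3 was.

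Proteins that work with the carriers were followed through 9 lists with 84 genes, of which 82 were tested. None passed for Hpgd deletion in Treg or in Tconv or for the difference of these effects. Between Treg KO and Tconv KO 4 passed as higher and 1 as lower, and between Treg WT and Tconv WT 1 passed as higher. These are 6.1% of the partner genes in KO, against 6.81% of all genes, and 1.22% in WT, against 4.18%. In the glutathione list, Gpx4, which reduces lipid peroxides with glutathione, had 3949, 3131, 5546 and 5610.3 in Treg KO, against 1616, 1545, 1565, 1625 and 1526 in Tconv KO, and 3544, 3421 and 4191 in Treg WT, against 1638, 1803, 2672 and 2072 in Tconv WT. It was higher in every Treg than in every Tconv library, by 1.49 in KO (SE 0.18, limma adjusted p = 2.78e-05) and 0.88 in WT (SE 0.21, adjusted p = 0.0175). The WT difference was 0.79 without the library labelled Treg WT 3 and did not pass then (limma adjusted p = 0.0929). It also missed when Tconv WT 1 (limma adjusted p = 0.0529) or Tconv WT 2 (adjusted p = 0.0515) was left out.

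Among enzymes of the malate-aspartate and glycerol phosphate shuttles, 2 of 5 tested passed as higher in Treg KO than in Tconv KO. Got1, the cytosolic aspartate aminotransferase, averaged 3744 ± 1368 in Treg KO, against 1271 ± 307 in Tconv KO (SD, n = 4 and 5; log2 difference 1.52, SE 0.31, limma adjusted p = 0.00351). In WT it averaged 3799 ± 1908 in Treg, against 1601 ± 605 in Tconv (SD, n = 3 and 4; 1.2, SE 0.35, limma adjusted p = 0.0596). Mdh1, the cytosolic malate dehydrogenase, averaged 2677 ± 626 in Treg KO, against 1514 ± 236 in Tconv KO (0.81, SE 0.2, limma adjusted p = 0.0149), with exons that overlap Wdpcp. Mdh1 did not pass without Treg KO 3 (limma adjusted p = 0.0643) or without Treg KO 4 (adjusted p = 0.0725). The carriers of the malate-aspartate shuttle did not pass: the KO differences were 0.26 for Slc25a12 (limma adjusted p = 0.703), 0.19 for Slc25a13 (adjusted p = 0.963) and 0.16 for Slc25a11 (adjusted p = 0.835).

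Of 21 other mitochondrial transporters and channels, Abcb10, an ABC transporter of the inner membrane, was higher in Treg KO than in Tconv KO and Sfxn4, a sideroflexin, was lower. Abcb10 had 20.3, 60.9, 184 and 81.8 in Treg KO, against 1, 25.2, 1.13, 40.9 and 1 in Tconv KO (3.43, SE 1.0, limma adjusted p = 0.0437). Sfxn4 had 4.62, 11.8, 3.83 and 1.97 in Treg KO, against 54.5, 37.6, 59.3, 30.5 and 34.8 in Tconv KO (-2.92, SE 0.80, limma adjusted p = 0.0299). Both are low genes, and with single libraries left out they mostly no longer passed. Abcb10 still passed in 3 of 9 such fits and Sfxn4 in 2 of 9. Their limma adjusted p rose to 0.164 without Treg KO 3 for Abcb10 and to 0.107 without Treg KO 4 for Sfxn4. Under the other alternatives Abcb10 passed in 4 of 9 and Sfxn4 in 7 of 8.

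In the other lists 0 genes passed in any comparison. The import machinery that inserts carriers into the inner membrane came closest with Timm29, which averaged 260 ± 87.7 in Treg WT, against 504 ± 83.4 in Tconv WT (SD, n = 3 and 4; -0.99, SE 0.28, limma adjusted p = 0.0544). Exons of Timm29 overlap those of Yipf2 on the other strand. Of the citrate and oxoglutarate enzymes, Idh3a differed by -1.08 between Treg WT and Tconv WT (SE 0.32, limma adjusted p = 0.0605). Alas1, the first enzyme of haem synthesis, differed by -2.55 (SE 0.81, limma adjusted p = 0.0875) in the same comparison. The smallest limma adjusted p over all comparisons was 0.245 for fatty acid oxidation, with Acadvl, and 0.306 for folate and glycine enzymes, with Mthfd1l. Exons of Acadvl overlap those of Dvl2 on the other strand.

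Of the carrier family proteins that go by other symbols, Ucp2, the uncoupling protein widely found in immune cells, had 7557, 6692, 7904 and 6536 in Treg KO, 6567, 5385 and 5682 in Treg WT, 6078, 9709.5, 5502, 5253 and 5251 in Tconv KO, and 7172, 6995, 6403 and 6898 in Tconv WT. Treg KO and Treg WT overlapped only through Treg WT 1, and their difference was 0.29 (SE 0.18, limma adjusted p = 0.848). Exons of Ucp2 overlap those of Dnajb13 on the other strand. Ucp1, the uncoupling protein of brown fat, reached at most 8.98, and Ucp3 at most 21.3.

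Spread between libraries of a group followed the level, as it did for other genes. The SD within groups of log2 values was 0.22 for Slc25a5 and 0.32 for Slc25a3, and 2.02 and 2.30 for Slc25a35 and Slc25a2. Its median was 0.82 over the 40 members and 0.77 over all genes, at median mean log2 values of 6.82 and 6.86. Of the members, 12 had an SD under 0.5. Slc25a1 stood out for its level, with an SD of 1.90 at a mean log2 value of 6.81, as did Slc25a44, with 1.5 at 7.12.

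**Figure D5:**
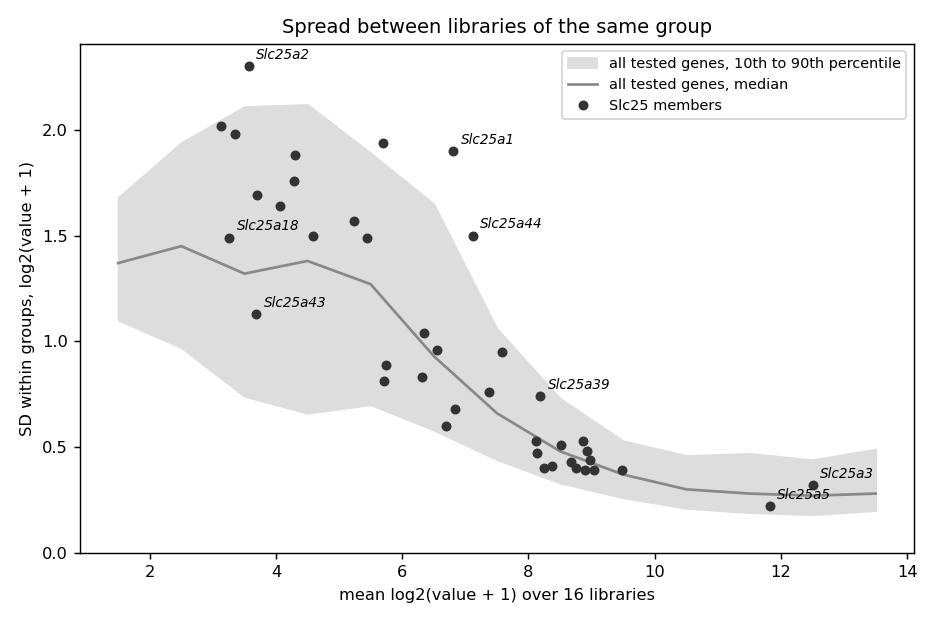
The SD of log2(value + 1) within groups (vertical axis) against the mean of log2(value + 1) over 16 libraries (horizontal axis) for the 40 tested members, over the median (line) and the 10th to 90th percentile (band) of all tested genes. Most members lie within the band, with Slc25a5 at 0.22 near its lower edge and Slc25a1 at 1.90 above it.

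The 45 members lie on 19 chromosomes, and 4 of them, Slc25a5, Slc25a14, Slc25a43 and Slc25a53, are on the X. In 13 members some exon bases also belong to a different annotated gene, which codes for a protein in 7 of them: Naif1 for Slc25a25, Rnf167 for Slc25a11, Atp6v1e1 for Slc25a18, Pax9 for Slc25a21, Lrig1 for Slc25a26, Rangrf for Slc25a35 and B930094E09Rik for Slc25a46. A stretch of at least 300 bases at 95% identity or more is shared with other genes by Slc25a5, Slc25a20, Slc25a36, Slc25a37 and Slc25a40. For Slc25a5 these are Gm5529, Gm5560 and Gm5256, with up to 900 bases at 96.8%. Values of these members are uncertain to the extent that reads were split.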

How the data were processed

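RNA of Treg and Tconv sorted from VAT was made into SMART-seq2 libraries, a method that keeps no strand, and sequenced on an Illumina instrument, per the labels' protocols. The authors deposited 1 table of normalised signal per gene and library, which its values show to be read counts divided by a size factor, plus 1. In each library 100% of values under 1000 reads were whole multiples of 1 read within 0.1, at a largest distance of 0.017, which gave the read totals. Per the submitters' processing notes, CASAVA 1.8, kallisto 0.44, Partek 6.6, R 3.3.1, DESeq2 and the build mm10 were used, without roles. For sort markers, and for the annotation and strand setting behind the counting, nothing is stated in the labels or notes. The deposited unit differs from the counts that a quasi-likelihood test needs, and limma was used on it.

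Values were put on the log2(value + 1) scale, which understates differences of low genes. A limma 3.58.1 fit with a mean-variance trend in R 4.3.3 took all 16 libraries and the 14319 genes that reached 10 in 3 or more libraries, with 2-sided tests. Adjusted p is limma's with Benjamini-Hochberg adjustment over these genes in each comparison, and passing means under 0.05. Fits were tested on simulated data with large changes of well-read genes only, which gives no measure of power for small changes or low members. Floors (3 reads) and n cover counting error and library spread only. Positions are from GENCODE M21, promoters from RefSeq, and shared stretches from BLAST 2.17.0 of GENCODE transcripts.

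Members and lists were chosen with earlier results of these data known. Of the family, 1 gene is not reported here and is left out of every member count, class, share and figure. Values in every library are given for members that passed, for the 6 highest per kb of exon and, in a comparison where none passed, for the 3 smallest p-values in each direction. Partner genes are named where they passed, otherwise the 1 with the smallest p. Groups come from the titles, and libraries were not paired in the main fit. Deviations of same-numbered libraries correlated at -0.022 to 0.0787. Differently numbered libraries were not set beside them, so these values cannot tell whether Treg and Tconv libraries share animals. Alternatives were another pseudocount, other filters, quantile scaling, only the groups compared, a robust prior, a replicate block, each library left out, and, added after seeing the data, 3 libraries left out together and limma voom on recovered reads.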

Additional observations from a re-analysis of the deposited data

Results flagged for a closer look

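In groups of 4 or 5 libraries, 57 sets of values of the 19 members shown by library were searched for a single library far from the rest, of which chance picks out about 1 in 20. There were 2. Slc25a38, the glycine carrier of haem synthesis, stood at 606 in Tconv WT 1 (585 reads), against 386 to 417 in the other Tconv WT libraries. Slc25a47 stood at 3.03 in Tconv WT 2, which is 1 read, against 1 in the other Tconv WT libraries. Tconv WT 1 is also the library with summed neutrophil markers of 14854. Whether this bears on Slc25a38 was not tested.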

How the results depend on the processing

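The counts of members that passed for Hpgd deletion, 0 in Treg, 0 in Tconv and 0 for the difference, were 0 under every alternative run. Between Treg WT and Tconv WT the count of 0 became 1 with Tconv WT 1, Tconv WT 3 and the deepest library, Tconv KO 3, all left out (Slc25a3), and 0 to 1 when single libraries were left out (1 without Tconv WT 3, Slc25a3). Between Treg KO and Tconv KO the count of 0 became 1 with only the groups compared (Slc25a51), 1 by limma voom on recovered reads (Slc25a15), and 0 to 1 when single libraries were left out (1 without Treg KO 1, Slc25a46). The causes were not tested. With the replicate block 0 members passed in each of the 5 comparisons, as without it. Over all genes, 599 became 161 with only the groups compared, 288 by voom and 339 without the library labelled Treg WT 3, and the 3 for deletion in Treg became 0 with the replicate block, 0 without the library labelled Treg WT 3 and 17 without Treg WT 1. Of 657 alternatives for named genes, 627 kept direction and side, 25 no longer passed, 5 newly passed and 0 reversed. Depth limits members under about 10: a value of 3 reads lies between 1.38 and 7.09. The planned quasi-likelihood test and voom with TMM factors were not run. The table is a normalised signal, but whole reads could be recovered from it, and limma voom was run on these with the deposited factors.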

Other observations

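Members lie next to each other in 3 places. Slc25a29 and Slc25a47 are divergent on chromosome 12, with 162 bases between their outermost GENCODE ends. The RefSeq promoter windows lie farther apart, at chr12:108835827-108836126 for Slc25a29 and chr12:108850879-108851178 for Slc25a47. Between Tconv KO and Tconv WT these genes differed in opposite directions, -2.06 for Slc25a29 and 3.54 for Slc25a47, and neither passed (limma adjusted p = 0.91 and 0.858). Slc25a41 and Slc25a23 lie 2056 bases apart on chromosome 17, the first reaching 4.99 and the second 229. Slc25a43 and Slc25a5 lie 18448 bases apart on the X, with per kb means of 7.81 and 2206.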
